A study of Ambystoma mexicanum with 44 samples.

Results

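KIT, SPR, CHGA and SCG2 were followed through wound healing and limb regeneration in the skin of the axolotl, Ambystoma mexicanum. They are 4 genes of 8639 with a symbol on the array. A probe set is a group of short probes for one transcript, and 6 of the 20035 probe sets tested carry one of these symbols in the platform annotation, with 2 each for SPR and CHGA and 1 each for KIT and SCG2. The genes were chosen on measured values of these same arrays. KIT was chosen on its level in the innervated limb on day 1 against day 0, SPR on the innervated limb on day 3 against day 0, and SCG2 on the flank on day 1 against day 0. For CHGA the comparison behind the choice is not known. Levels in those comparisons, and every change from day 0, are therefore given as a description with no test.

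Gene expression was measured on 44 Affymetrix arrays in epidermis together with the cells that adhered to it, in 11 groups of 4 animals, with 2 harvests of each animal pooled into 1 sample. All animals were of the aquatic form, and the labels give no strain, age, sex or batch. The flank series had full-thickness wounds made with a 4 mm biopsy punch and was sampled uninjured (day 0) and on days 1, 3 and 7. The innervated limb series had the forelimb amputated just above the elbow, with the humerus trimmed flush, and was sampled on the same 4 days. The denervated limb series had the same amputation after the brachial nerves were cut and was sampled on days 1, 3 and 7. Injured flank and injured limb thus differ both in site and in kind of wound, and these cannot be told apart. No denervated group at day 0 was analysed here, so both limb series were set against the same 4 uninjured innervated limb arrays. The harvest therefore holds any cell that came away with the epidermis, and in such bulk tissue fewer cells of a type and less RNA per cell cannot be told apart.

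Amphibian skin holds several kinds of pigment cell. Melanophores make melanin in melanosomes, while xanthophores colour the skin with pteridines and carotenoids. KIT is the receptor tyrosine kinase for stem cell factor and is known for its role in pigment cells, mast cells, germ cells and blood progenitors. SPR, sepiapterin reductase, carries out the last step in the synthesis of tetrahydrobiopterin, a cofactor of aromatic amino acid hydroxylases made by the pathway that also feeds pteridine pigments. CHGA (chromogranin A) and SCG2 (secretogranin II) are granins, acidic proteins stored in the dense-core secretory granules of endocrine and nerve cells and cut into peptides.

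The deposited values were log2 intensities, on which a difference of 1 is a doubling. They ran from 2.41 to 15.04, with array medians between 5.61 and 5.72, and no array was identical to another. Skeletal muscle genes were uneven between replicates: the mean level of the 17 muscle genes measured ran from 6.59 to 10.7 in the innervated limb on day 1 and from 4.80 to 10.3 in the denervated limb on day 3. They were uneven before injury too, from 6.79 to 9.83 in the flank and from 5.19 to 8.04 in the limb, the arrays behind every change from day 0 and the site differences in uninjured skin. The 9 myeloid genes measured averaged 7.42 to 7.66 in uninjured flank and 7.50 to 7.97 in uninjured limb, and 8.32 to 9.55 on the arrays from injured tissue. The part of these cells in the results below was not tested, apart from leaving out the 3 arrays of highest muscle signal.

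In uninjured skin, the KIT level was higher in the flank than on any injured array. The 4 flank arrays stood at 12.23, 11.74, 11.38 and 11.89 on day 0, at 8.58, 9.34, 9.10 and 8.07 on day 1, at 9.80, 10.58, 10.32 and 9.69 on day 3 and at 10.37, 9.87, 10.15 and 10.42 on day 7. The innervated limb had KIT at 10.87, 10.83, 11.08 and 11.34 on day 0, at 7.77, 8.52, 8.21 and 8.38 on day 1, at 10.86, 10.11, 10.74 and 10.12 on day 3 and at 9.75, 10.30, 9.88 and 10.46 on day 7. The denervated limb had KIT at 8.36, 8.38, 8.62 and 8.38 on day 1, at 9.81, 10.25, 9.81 and 10.80 on day 3 and at 9.65, 10.19, 10.97 and 10.26 on day 7. KIT was thus low on day 1 in every series, where no array came near the day 0 range. Its group means stood between the 2 levels on days 3 and 7.

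On the log2 scale the day 1 KIT level differed from day 0 by -2.81 in the innervated limb, -2.60 in the denervated limb and -3.04 in the flank. The SE of each difference was 0.26, from 1 limma fit of all 44 arrays with the spread pooled over groups of 4. As folds, the day 1 levels were 7.01, 6.04 and 8.21 times lower. On day 7 the difference from day 0 was still -0.93 in the innervated limb, -0.76 in the denervated limb and -1.61 in the flank. The flank arrays of days 3 and 7 did not overlap those of day 0, nor did those of the innervated limb on day 7 or the denervated limb on day 3. The ranges did overlap for the innervated limb on day 3 and the denervated limb on day 7.

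**Figure D1:**
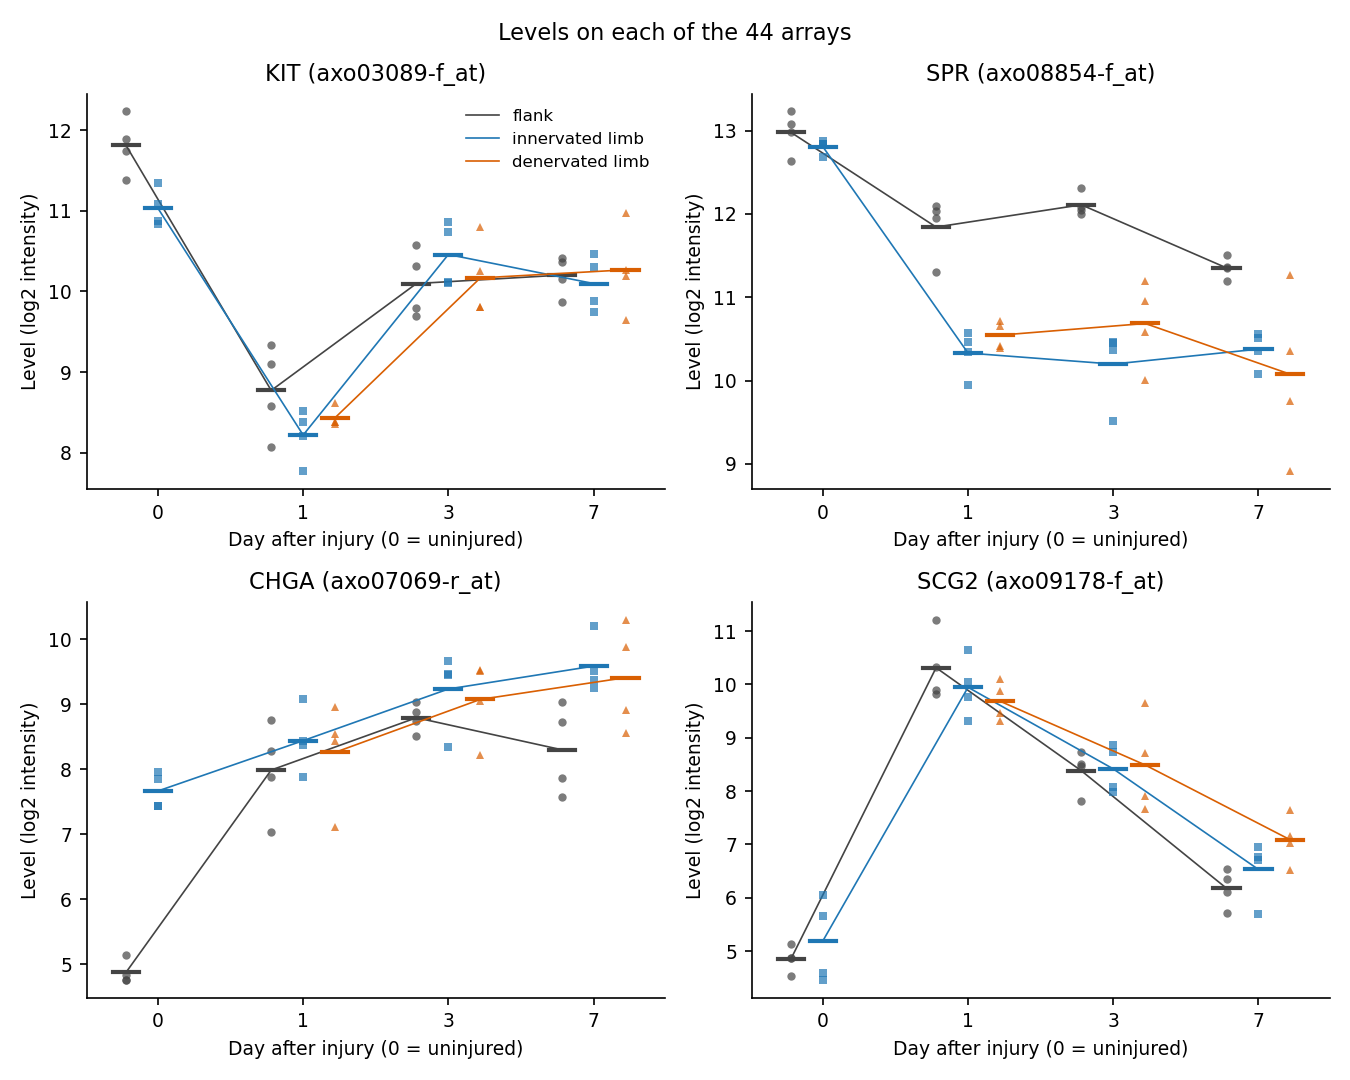
Level (log2 intensity, vertical axis) of the probe set of highest mean for KIT, SPR, CHGA and SCG2 against day after injury (0 is uninjured), with 1 point per array, 4 arrays per group, a bar at each group mean and a line joining the means of each series. KIT dips on day 1, SPR stays low in both limb series, CHGA starts near 4.88 only in the flank, and SCG2 peaks on day 1 in all 3 series.

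The return of KIT after day 1 could be tested in the 2 series whose day 1 arrays had no part in the choice of the gene. KIT rose from day 1 to day 3 by 1.73 (SE 0.26) in the denervated limb, a 3.32-fold rise with an adjusted p of 2.82e-06 (limma, adjusted over all 20035 probe sets by Benjamini-Hochberg). In the flank it rose by 1.33 (SE 0.26), or 2.51-fold, with an adjusted p of 1.59e-04 by limma. In both series all 4 arrays of day 3 were above all 4 of day 1. Of all probe sets, 27.3% were called at an adjusted p under 0.05 in the denervated limb between these days and 26.2% in the flank. The same step in the innervated limb was 2.24, given without a test because its day 1 arrays helped to choose KIT.

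From day 3 to day 7 no KIT difference passed the test. It was -0.36 in the innervated limb (adjusted p = 0.651 by limma), 0.10 in the denervated limb (adjusted p = 0.907) and 0.11 in the flank (adjusted p = 0.870), with 95% intervals of -0.90 to 0.18, -0.44 to 0.64 and -0.43 to 0.64. The share of all probe sets called between these days was 3.51%, 6.49% and 12.5% in the same order.

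KIT did not differ detectably with nerve supply. Innervated minus denervated was 0.29 on day 3 (95% interval -0.25 to 0.83, adjusted p = 0.930 by limma) and -0.17 on day 7 (95% interval -0.71 to 0.37, adjusted p = 0.914). The day 1 values, which carry no test, were 8.22 in the innervated and 8.44 in the denervated limb. KIT stood higher in uninjured flank than in uninjured limb, by 0.78 on the log2 scale, and these ranges did not overlap. On day 3 the innervated limb minus flank difference was 0.36 (adjusted p = 0.508 by limma) and on day 7 it was -0.11 (adjusted p = 0.900). In the order of group means, neighbours overlapped except at 2 points: between uninjured flank and uninjured limb, and between the groups of days 3 and 7 and those of day 1.

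SPR, on 1 of its 2 probe sets, gave both of the differences between innervated limb and flank that passed among the 6 tested. With the probe set of higher mean (axo08854-f_at), uninjured flank stood at 13.23, 12.98, 12.63 and 13.08 and uninjured limb at 12.68, 12.84, 12.84 and 12.87, ranges that overlap. After injury the flank stood at 11.95, 12.09, 12.03 and 11.30 on day 1, at 12.31, 12.00, 12.08 and 12.05 on day 3 and at 11.51, 11.35, 11.36 and 11.19 on day 7. No injured flank array reached its day 0 range. The innervated limb was lower, at 9.95, 10.34, 10.57 and 10.46 on day 1, at 10.37, 10.45, 10.46 and 9.51 on day 3 and at 10.36, 10.08, 10.51 and 10.56 on day 7. The denervated limb stood at 10.42, 10.71, 10.39 and 10.66 on day 1, at 10.96, 10.58, 10.01 and 11.19 on day 3 and at 8.91, 9.76, 11.27 and 10.36 on day 7. Unlike KIT, SPR showed no return toward the uninjured level by day 7 in either limb series. The denervated arrays of day 7 spread most widely, with one at 8.91 and one at 11.27.

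Against day 0, this SPR probe set was lower in the innervated limb by -2.48, -2.61 and -2.43 on days 1, 3 and 7, in the denervated limb by -2.26, -2.12 and -2.73, and in the flank by -1.14, -0.87 and -1.63 (SE 0.28 for each). These are 5.57, 6.11 and 5.39 times lower in the innervated limb and 2.20, 1.83 and 3.09 times lower in the flank. The group order put the 2 uninjured groups first, then the 3 injured flank groups, then the 6 injured limb groups, and only the step from uninjured to injured tissue had no overlap between neighbours.

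The difference between innervated limb and flank, which takes in both site and kind of wound, was tested on days 1 and 7. The arrays of those days had no part in the choice of SPR. SPR was lower in the innervated limb than in the flank by -1.51 on day 1 (SE 0.28, 2.85-fold, adjusted p = 7.55e-04 by limma) and by -0.98 on day 7 (SE 0.28, 1.97-fold, adjusted p = 0.0203). On both days all 4 limb arrays were below all 4 flank arrays, and the exact permutation test gave p = 0.0286, the smallest that 4 against 4 arrays allow. Among all probe sets, 4.93% were called between these sites on day 1 and 9.32% on day 7. The day 7 call was lost without innervated limb replicate 2 (adjusted p = 0.0788) or without flank replicate 1 (adjusted p = 0.0608). On day 3 the means were 10.20 and 12.11, with no overlap and no test.

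The second SPR probe set (axo08853-f_at) did not show this pattern. Its group means lay between 9.54 and 9.99 and all neighbours in their order overlapped. In the innervated limb it stood at 9.89 before injury and at 9.60, 9.67 and 9.71 on days 1, 3 and 7, and in the flank at 9.58 before injury and at 9.54, 9.99 and 9.90 after it. The innervated limb minus flank difference with this probe set was 0.050 on day 1 and -0.20 on day 7, and the latter did not pass (adjusted p = 0.218 by limma). From day 1 to day 3 this probe set rose in the flank by 0.44 (adjusted p = 2.95e-04), where the first gave 0.27 (adjusted p = 0.553). The deviations of the 2 probe sets from their group means had a Pearson r of -0.20 over the 44 arrays, against 0.24 over the 11 group means. The SPR results thus rest on 1 of 2 probe sets that disagree. What distinguishes the 2 probe sets was not tested.

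**Figure D2:**
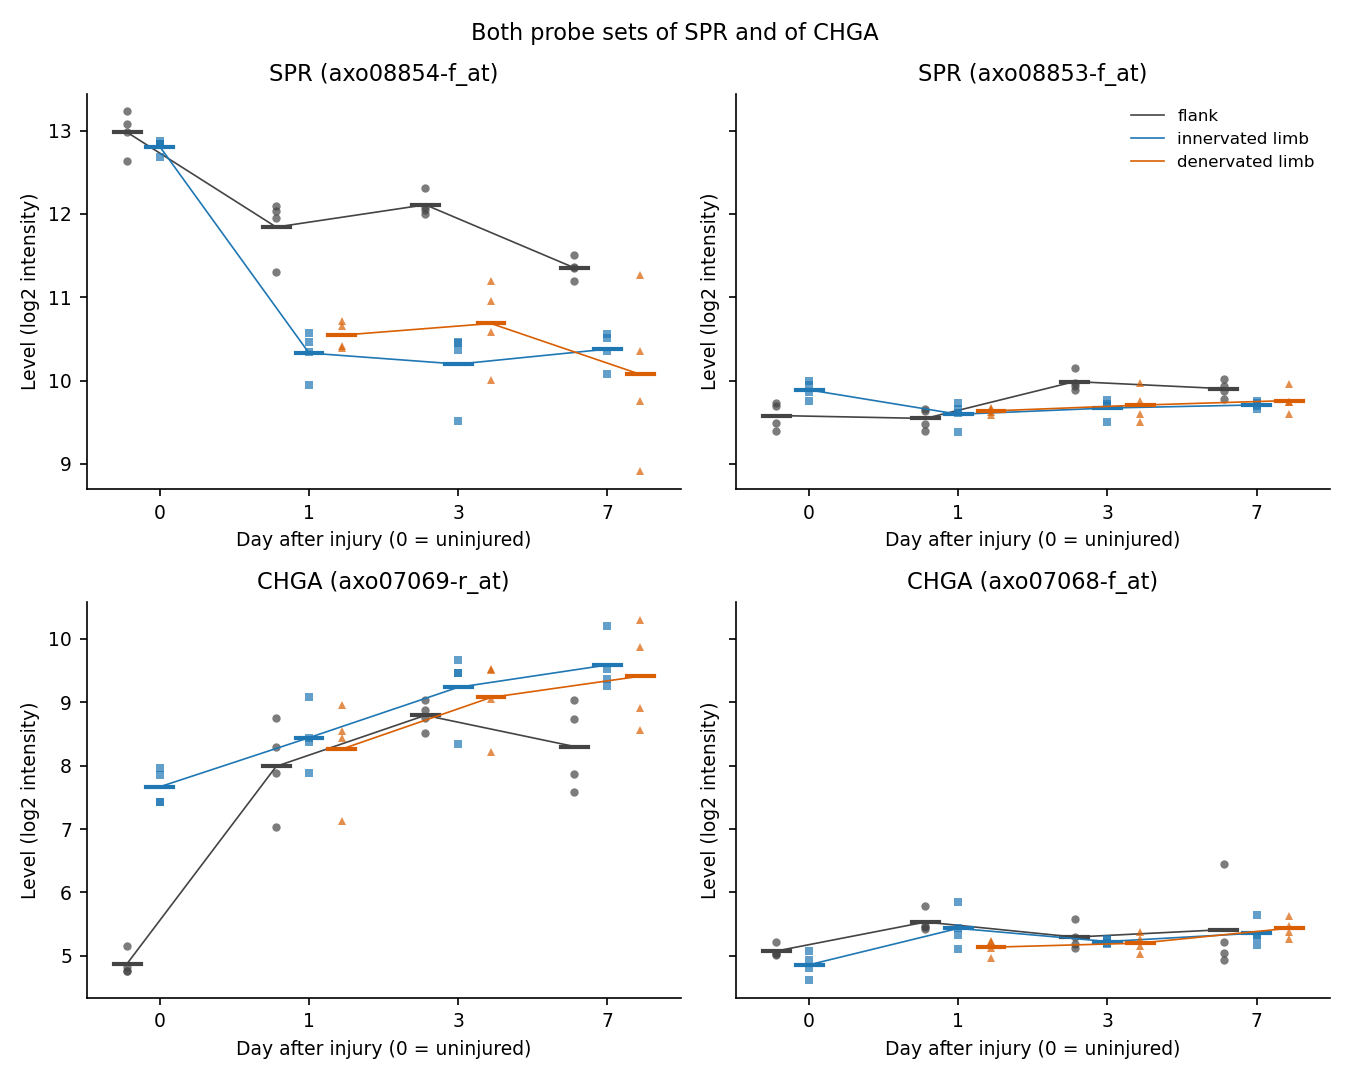
Level (log2 intensity, vertical axis) of both probe sets of SPR (upper row) and of CHGA (lower row) against day after injury, with 1 point per array, 4 arrays per group, and a bar at each group mean. The right-hand probe set of each gene stays within a narrow band, 9.54 to 9.99 in group means for SPR and 4.86 to 5.53 for CHGA, while the left-hand one moves.

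SPR did not differ detectably between innervated and denervated limbs, by -0.22 on day 1 (95% interval -0.78 to 0.35, adjusted p = 0.919 by limma) and by 0.30 on day 7 (95% interval -0.27 to 0.87, adjusted p = 0.797). The day 7 interval rests on the spread pooled over all groups and is likely too narrow. The SD on that day was 0.99 in the denervated and 0.22 in the innervated limb. Between later days no SPR difference passed in limma. The nearest was the flank from day 3 to day 7, at -0.76 (SE 0.28, adjusted p = 0.0729), where the 4 arrays of each day did not overlap. It passed with array weights (adjusted p = 0.0209) and in a fit of those 2 groups alone (adjusted p = 0.00212). The denervated limb gave -0.61 over the same days (adjusted p = 0.231), and -1.01 without its replicate 3 of day 7, which was then past the threshold (adjusted p = 0.0110).

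With the SPR probe set of higher mean (axo08854-f_at), KIT and SPR deviated in the same direction on many arrays of a group. Their deviations from the group means had a Pearson r of 0.61 and a Spearman rho of 0.48 over the 44 arrays, and an r of 0.51 without the 2 arrays farthest from the median in KIT. These points share the array, the RNA pool and its mix of cells. In the denervated limb on day 7, for example, replicate 1 was lowest for both genes (9.65 and 8.91) and replicate 3 was highest for both (10.97 and 11.27). The check that left out 2 arrays went by KIT alone and kept this replicate 1. Over the 11 group means r was 0.50. With the other SPR probe set (axo08853-f_at) no correlation with KIT was computed. On it, replicate 3 of the denervated limb on day 7 was the lowest of its group, at 9.60.

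With its higher probe set, CHGA differed between the 2 sites before injury by more than the other 3 members did. On days 1 and 3 the arrays of the 2 sites overlapped. The higher probe set (axo07069-r_at) was at 5.15, 4.76, 4.76 and 4.83 in uninjured flank and at 7.43, 7.85, 7.96 and 7.43 in uninjured limb. The limb minus flank difference was 2.79 (SE 0.39), or 6.93-fold, with no overlap. After injury the flank stood at 7.88, 8.76, 8.29 and 7.03 on day 1, at 8.75, 8.51, 9.04 and 8.88 on day 3 and at 8.73, 7.58, 9.03 and 7.87 on day 7. The injured flank means were thus above that of uninjured limb, with overlap on day 1 and day 7. The injured innervated limb stood at 8.38, 7.88, 9.08 and 8.43 on day 1, at 9.47, 9.46, 9.67 and 8.35 on day 3 and at 9.37, 9.26, 9.52 and 10.21 on day 7. The denervated limb stood at 8.54, 8.43, 8.96 and 7.12, then at 8.22, 9.51, 9.05 and 9.53, then at 8.56, 9.88, 10.30 and 8.91 on the same days.

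In the flank the CHGA level was above day 0 by 3.12, 3.92 and 3.43 on days 1, 3 and 7, or 8.66, 15.1 and 10.8 times. The uninjured flank level behind these folds, 4.76 to 5.15, is low on this array, so their size is uncertain. In the innervated limb it was above by 0.78, 1.57 and 1.92, and in the denervated limb by 0.60, 1.41 and 1.75, each with an SE of 0.39. The day 1 limb arrays overlapped the uninjured ones, and those of days 3 and 7 did not. The gap between innervated limb and flank was 0.45 on day 1, 0.44 on day 3 and 1.29 on day 7, with overlap on days 1 and 3 only. Innervated and denervated limbs were within 0.18 of each other on all 3 days and overlapped. In the order of group means, uninjured flank alone was separated from its neighbour. None of these CHGA values carries a test.

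The other CHGA probe set (axo07068-f_at) had group means between 4.86 in uninjured limb and 5.53 in the flank on day 1, and every neighbour in their order overlapped. In uninjured skin its limb minus flank difference was -0.22, opposite in sign to that of the first probe set. The CHGA site difference before injury thus rests on 1 of 2 probe sets that disagree. Its means after injury were above the uninjured mean of the same site on every day, as with the first probe set, though not on every array. Its deviations from group means had an r of -0.15 with those of the first over the 44 arrays, against 0.43 over the 11 group means.

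SCG2 was low in uninjured skin, stood highest on day 1 in all 3 series and declined after that. In the flank it was at 4.87, 4.87, 5.13 and 4.53 on day 0, at 10.32, 9.83, 9.90 and 11.21 on day 1, at 8.48, 8.51, 8.73 and 7.81 on day 3 and at 6.10, 6.36, 6.53 and 5.72 on day 7. The innervated limb had SCG2 at 6.06, 4.46, 4.58 and 5.66, then at 9.32, 9.77, 10.05 and 10.65, then at 7.99, 8.74, 8.07 and 8.87, then at 5.69, 6.71, 6.95 and 6.77 on the same days. The denervated limb had SCG2 at 9.46, 10.11, 9.87 and 9.31 on day 1, at 9.66, 8.72, 7.91 and 7.67 on day 3 and at 7.64, 6.52, 7.16 and 7.02 on day 7. All arrays of days 1 and 3 were above all uninjured arrays, and by day 7 only the innervated limb overlapped its day 0 range.

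On day 1 the SCG2 level was above day 0 by 5.47 in the flank, 4.76 in the innervated limb and 4.50 in the denervated limb (SE 0.38), which is 44.2, 27.0 and 22.6 times. The uninjured levels behind these folds are low as well, at 4.46 to 6.06. On day 7 the differences were 1.33, 1.34 and 1.90. By size, the day 1 difference ranked 30 of 20035 probe sets in the flank, 25 in the innervated limb and 35 in the denervated limb. The flank comparison is the one SCG2 was chosen on, so a high rank there followed from the choice. The order of the group means followed the day, with the series overlapping on each day, and the lowest injured groups were those of day 7.

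The decline could be tested wherever the flank arrays of days 0 and 1 were not involved, and it passed in all 5 such steps. In the innervated limb SCG2 fell by 1.53 from day 1 to day 3 (SE 0.38, adjusted p = 0.00199 by limma) and by 1.89 from day 3 to day 7 (adjusted p = 0.00191). In the denervated limb it fell by 1.20 (adjusted p = 0.0144) and by 1.41 (adjusted p = 0.0163). In the flank it fell by 2.21 from day 3 to day 7 (adjusted p = 7.50e-05). Between day 1 and day 3, 26.3% of all probe sets were called in the innervated limb, so a call at that step is common.

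Some of these calls rested on single arrays. Replicates 3 and 4 of the innervated limb on day 1 were 2 of the 3 arrays of highest muscle signal (10.1 and 10.7) and the highest SCG2 levels of their group. Without them and replicate 3 of the denervated limb on day 3, the day 1 to day 3 difference was -1.13 in the innervated limb (adjusted p = 0.0718) and -1.004 in the denervated limb (adjusted p = 0.0608). Leaving out denervated day 1 replicate 2, day 3 replicate 3 or day 3 replicate 4 also ended the first denervated call, and leaving out day 3 replicate 1, day 3 replicate 2 or day 7 replicate 2 ended the second. Without the same 3 arrays the innervated day 1 level was still 4.36 above day 0.

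SCG2 did not differ detectably with nerve supply or, on days 3 and 7, between innervated limb and flank. Innervated minus denervated was 0.26 on day 1 (95% interval -0.51 to 1.03, adjusted p = 0.930 by limma), -0.073 on day 3 (-0.84 to 0.69, adjusted p = 0.989) and -0.56 on day 7 (-1.32 to 0.21, adjusted p = 0.660). Innervated limb minus flank was 0.035 on day 3 (adjusted p = 0.979) and 0.35 on day 7 (adjusted p = 0.699).

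**Figure D3:**
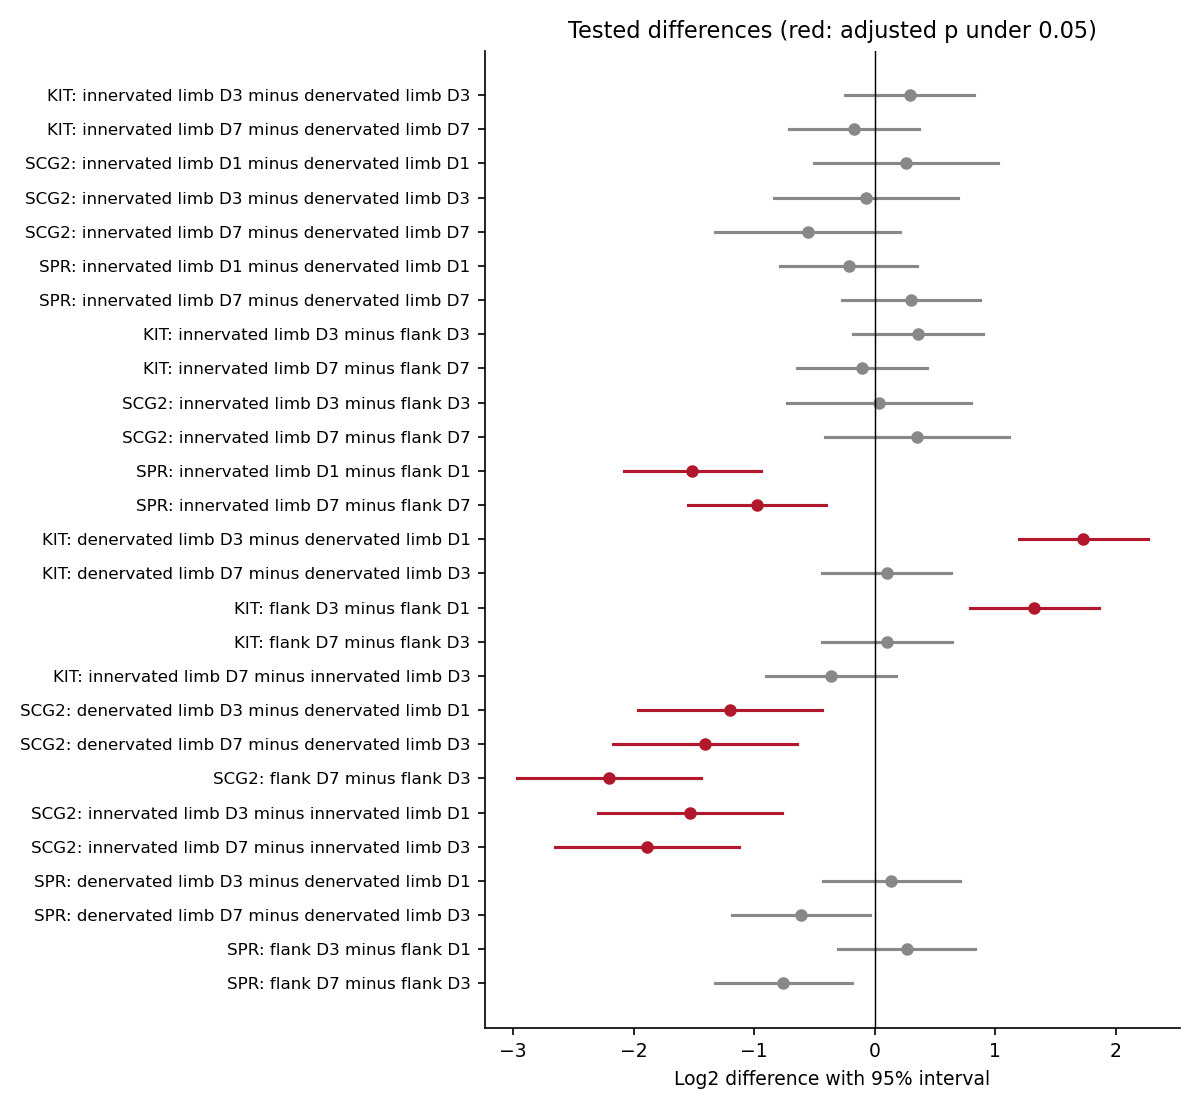
Log2 differences (horizontal axis) with 95% intervals for the 27 comparisons of KIT, SPR and SCG2 whose groups had no part in the choice of the gene, from groups of 4 arrays, with those of adjusted p under 0.05 in red. SPR is shown by its probe set of higher mean (axo08854-f_at). The 7 innervated minus denervated differences all span 0, the SPR differences between innervated limb and flank lie below 0, KIT rises and SCG2 falls after day 1. The other SPR probe set, not shown, gave innervated limb minus flank differences of 0.05 on day 1 and -0.20 on day 7, and neither passed.

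Over the 3 tested members, 7 innervated against denervated comparisons gave 0 calls in limma, with 0 at an unadjusted p under 0.05 and 0 in the exact permutation test (lowest p = 0.200). The background is small here, with 0.02% of all probe sets called on day 1, 0.265% on day 3 and 1.7% on day 7. Between innervated limb and flank 2 of 6 tests passed, both for SPR with the probe set of higher mean (axo08854-f_at). With the other SPR probe set neither passed. Of all probe sets, 6.24% were called on day 3, and the shares above on days 1 and 7. Of 14 tests between later days 7 passed, 2 for KIT and 5 for SCG2. Across the 3 series, 26.2% to 27.3% of all probe sets were called from day 1 to day 3. The share was 3.51% to 12.5% from day 3 to day 7. A further 10 tests asked whether 2 series differed in their change from day 1 to day 3 or from day 3 to day 7, and 0 passed in limma, with 0 at an unadjusted p under 0.05. Their adjusted p ran from 0.536 to 0.997, and the largest difference was 0.80, for SCG2 in the denervated limb against the flank from day 3 to day 7. In these comparisons of changes the share of all probe sets called was 0.235% for innervated against denervated limb and 1.47% for denervated limb against flank from day 1 to day 3. From day 3 to day 7 it was 0.0549% for innervated against denervated limb, 1.29% for innervated limb against flank and 1.44% for denervated limb against flank.

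CHGA and SCG2 are both granins, and with the higher CHGA probe set the days of their highest means differed, which was not tested. SCG2 was highest on day 1 in each series, while CHGA was highest on day 3 in the flank and on day 7 in both limb series. The other CHGA probe set had its highest mean on day 1 in the flank (5.53) and in the innervated limb (5.43) and on day 7 in the denervated limb (5.44), so the contrast rests on 1 of 2 probe sets. For the higher probe set and SCG2, the deviations from group means had a Pearson r of -0.30 and a Spearman rho of -0.28 over the 44 arrays, against 0.41 over the 11 group means.

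The label of pigment cells was checked on the 10 melanophore genes measured, and they did not settle it. The melanin enzymes had low values on every array: TYR, tyrosinase, at 3.68 to 4.49, TYRP1 at 3.27 to 3.95 and DCT at 2.92 to 3.54, with the melanosome transporter SLC45A2 at 3.74 to 4.48. Other genes of the same list had high values: GPR143 at 8.13 to 9.94, RAB32 at 9.99 to 10.88 and GPNMB at 10.33 to 13.49. The dimmest 25% of all probe sets averaged 4.11 or less, and 2 of the 10 genes fell among them, although levels of different probe sets are not amounts that can be compared. MITF, PMEL, SOX10 and GCH1 were not analysed here. KIT and SPR are described by name, and which cells they come from was not tested.

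Of the 45 genes of 3 related lists (melanophore, pigment lineage and pteridine synthesis), 20 were measured, and they did not move as a group. In the innervated limb 3 rose and 3 fell on day 1, 3 rose and 5 fell on day 3, and 4 rose and 5 fell on day 7, where 36%, 25.9% and 26.6% of all probe sets were called. In the denervated limb the counts were 1 and 4, 3 and 4, and 2 and 4, against 34.2%, 26.4% and 27% of all probe sets. In the flank they were 4 and 1, 2 and 3, and 2 and 3, against 41.3%, 27.4% and 23.7%. The list's median change lay between -0.10 and 0.06 over the 9 comparisons, and that of all probe sets between -0.04 and 0.05. None was called between innervated and denervated limbs on any day by limma, with 1, 0 and 2 at an unadjusted p under 0.05 on days 1, 3 and 7.

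Some members of these lists moved by more than the rest. They were named because their adjusted p against day 0 was among the smallest of their list. Their calls in these comparisons were thus favoured by the choice. GPR143, a receptor of the melanosome membrane, fell in 8 of 9 comparisons with day 0, by 1.20 in the innervated limb and 0.74 in the flank on day 7 (limma, smallest adjusted p = 1.53e-07). RAB32, a GTPase of melanosome transport, was lower than day 0 by 0.35 to 0.56 in the limb series, all past the test, and within 0.10 of day 0 in the flank. GPNMB, a melanosome glycoprotein that macrophages also make, rose in 7 of 9, by 2.02 in the innervated limb and 2.30 in the flank on day 7 (smallest adjusted p = 8.78e-10). TFAP2A, a transcription factor of neural crest and epidermis, rose in all 9, by 0.56 to 0.87. In the pteridine list PCBD2, which recycles the tetrahydrobiopterin cofactor, fell in 8 of 9, by 0.35 to 0.79. GCHFR, the feedback regulator of the first enzyme of the pathway, was lower by 0.53 and 0.54 in the innervated limb on days 3 and 7. QDPR, which regenerates the cofactor, rose in that limb by 0.38 to 0.48 on all 3 days. Neither was particular to the innervated limb. The GCHFR mean was 5.718 in uninjured flank and 5.215 there on day 3. The QDPR mean was 8.83 in uninjured limb and 9.36 in the denervated limb on day 3.

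The granule label was checked in the same way. Among genes of the dense-core granule, SCG5 stood at 2.82 to 3.30 on all arrays, SCG3 at 2.83 to 5.19, the prohormone convertase PCSK1 at 3.65 to 4.45 and the carboxypeptidase CPE at 3.42 to 4.45. CHGB, chromogranin B, lay between 4.88 and 5.67 on all arrays. Other genes of these lists had high values, among them PAM at 8.87 to 10.38, UCHL1, a neuronal deubiquitinase, at 8.40 to 11.30 and CCK at 6.52 to 12.40. The Merkel cell list held KRT8 at 13.66 to 14.37 and KRT18 at 10.30 to 12.07, keratins that other epithelial cells also make. Of the 41 measured genes of the granule, Merkel cell and neuropeptide lists, which name 55, 18 were in the dimmest 25% of probe sets. CHGA and SCG2 are described by name, and which cells they come from was not tested.

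Those 41 genes also went both ways. In the innervated limb 6 rose and 7 fell on day 1, 3 and 6 on day 3, and 3 and 6 on day 7. In the denervated limb the counts were 5 and 6, 4 and 7, and 5 and 8, and in the flank they were 12 and 6, 5 and 5, and 2 and 7, read against the shares of all probe sets given above. The list's median change was between -0.06 and 0.12. None was called with nerve supply by limma, with 4, 2 and 3 at an unadjusted p under 0.05 on days 1, 3 and 7.

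The risers on day 1 included 3 that code for secreted peptides and granule cargo. NPY, neuropeptide Y, was above uninjured tissue by 3.19 in the innervated limb, 3.56 in the denervated limb and 3.84 in the flank on day 1, and still by 1.20, 2.20 and 1.03 on day 7, and it passed in all 9 comparisons (limma, smallest adjusted p = 7.42e-13). In uninjured flank NPY averaged 4.40 and on day 1 it averaged 8.24. PENK, the precursor of the enkephalins, rose by 2.37, 2.36 and 1.89 on day 1 and by 1.02, 1.20 and 1.24 on day 3, and did not pass on day 7. VGF, a granin-like granule protein, rose by 1.27, 1.23 and 1.80 on day 1 and passed on no later day. All 3 were highest on day 1 and lower on day 3 in each series, the days on which SCG2 was highest and declining. They were named because their adjusted p in changes from uninjured tissue was among the smallest of their lists, so their calls were favoured by the choice. They were also picked as day 1 risers, so their match to SCG2 on that day followed from the choice. SCG3, of the same lists and dim, was highest on day 1 in the flank (3.87). Its highest mean was on day 3 in the innervated limb (4.22) and on day 7 in the denervated limb (4.06). From day 3 to day 7 the means of SCG2 and PENK fell in every series. NPY instead went from 6.575 to 7.05 in the denervated limb and fell in the other series. VGF went from 5.37 to 5.69 in the innervated and from 5.25 to 5.54 in the denervated limb, and fell in the flank. TAC1, the precursor of substance P and named by its adjusted p in the same way, rose by 0.53 to 0.81 on day 1 only.

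**Figure D4:**
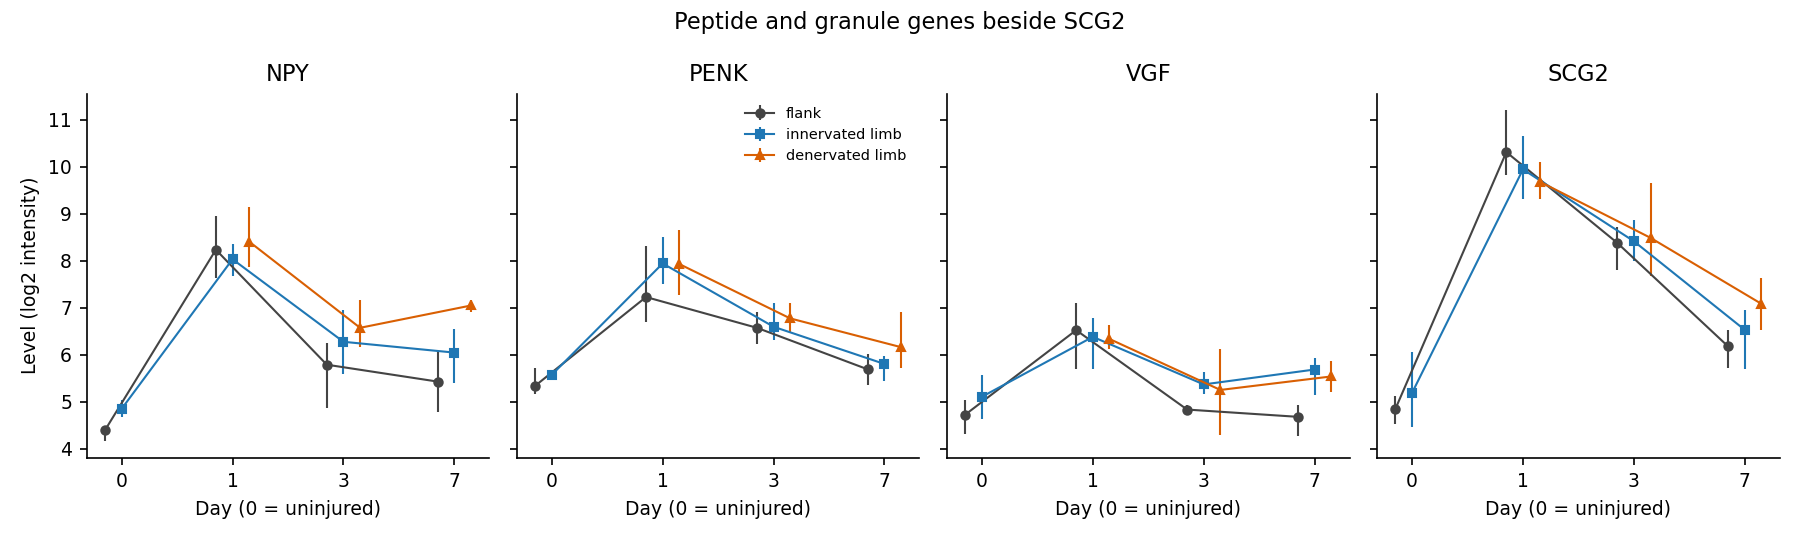
Mean level (log2 intensity, vertical axis) of NPY, PENK, VGF and SCG2 against day after injury, with bars from the lowest to the highest of 4 arrays. All 4 genes have their highest mean on day 1 in each series. NPY, PENK and VGF were picked as day 1 risers, so their match to SCG2 on that day followed from the choice. On day 7 the means of NPY, PENK and SCG2 are still above the uninjured means in each series. That of VGF is above it in both limb series and not in the flank.

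Fallers of the same lists included PTPRN2, a membrane protein of secretory granules, which fell in all 9 comparisons by 0.55 to 0.82, and SLC18A2, the vesicular monoamine transporter, which fell in 7 of 9. KRT18, a keratin of Merkel cells and simple epithelia, also fell in all 9, by 0.40 to 1.04. PAM, which amidates peptides, was lower than day 0 by 0.83 in the flank on day 1 and rose by 0.56 and 0.70 in the innervated and denervated limb on day 7. These genes too were named because their adjusted p against day 0 was among the smallest of their lists.

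**Figure D5:**
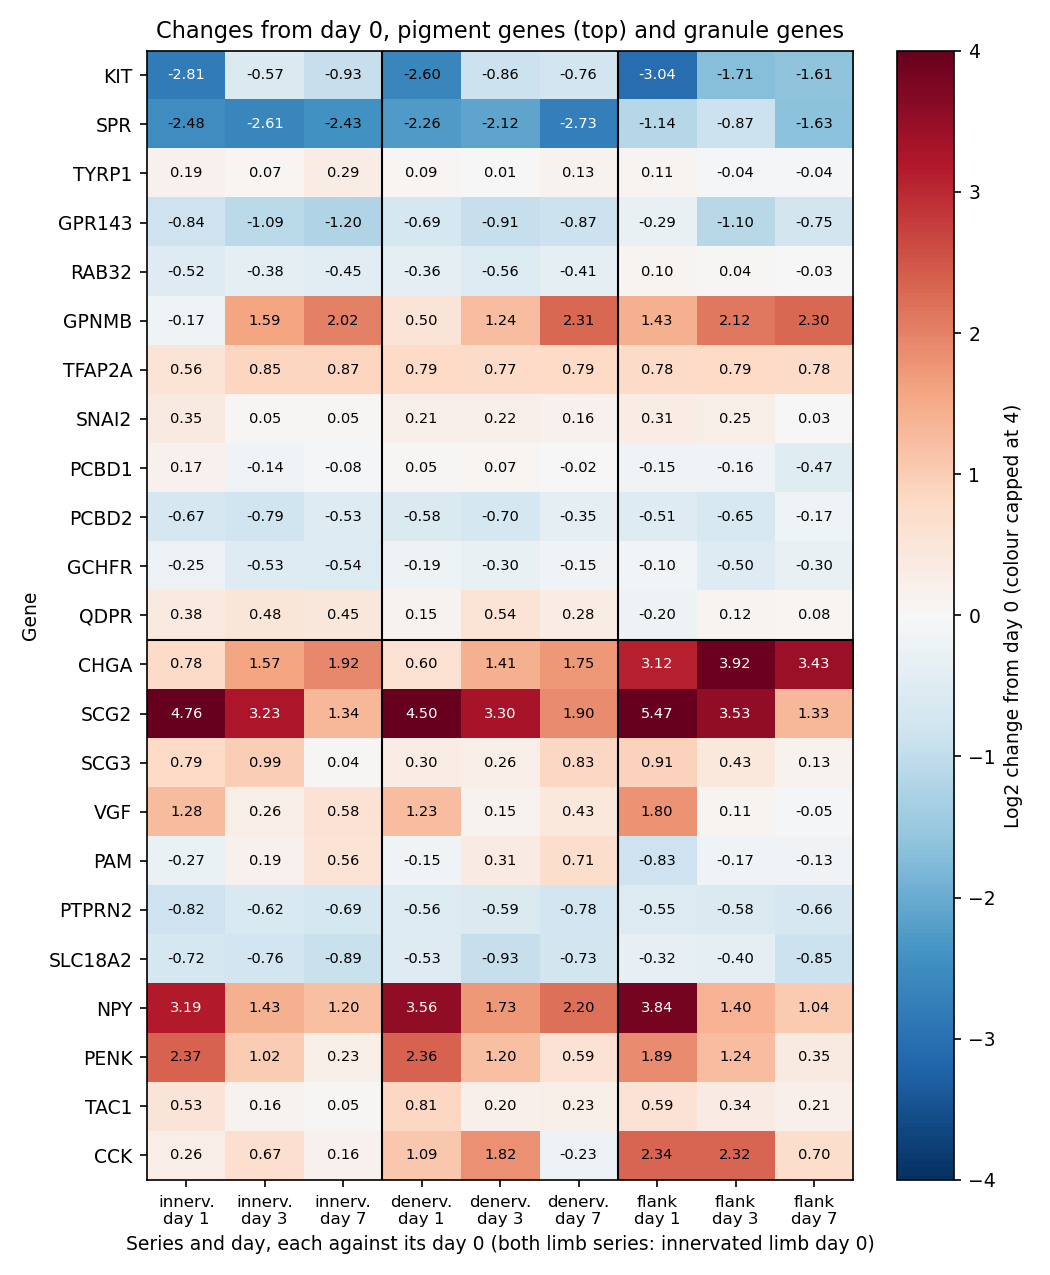
Log2 change from day 0 (colour, capped at 4, and printed in each cell) for KIT, SPR and related pigment genes (upper block) and for CHGA, SCG2 and related granule and peptide genes (lower block) in the 3 series on days 1, 3 and 7, from groups of 4 arrays. Each gene is shown by its probe set of highest mean. With these, KIT and SPR are below 0 in every column and CHGA and SCG2 above it, while the other genes of each block go in both directions. The other SPR probe set, not shown, was 0.41 and 0.32 above day 0 in the flank on days 3 and 7.

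The other cell type lists give the setting of these values. Nerve and Schwann cell genes, 12 of them measured, averaged 4.78 to 5.68 in the innervated limb on day 1 and no more than 5.07 on any array of the other groups. Among them MBP, a myelin gene, ran from 5.26 to 12.52 on those innervated arrays. None of the 12 was called between innervated and denervated limbs on any day. Of mast cell genes only HDC, at 3.76 to 4.44, and SRGN, at 10.03 to 12.30, were measured, so KIT could not be set against a mast cell panel. The 13 keratinocyte genes averaged 9.77 to 10.3 in uninjured skin and 10.1 to 10.996 after injury. The 3 erythrocyte genes averaged 7.11 to 8.42 in the innervated and 7.38 to 7.78 in the denervated limb on day 1. Both ranges were above the 5.90 to 6.71 of uninjured limb. In the flank they averaged 6.81 to 7.78 on day 3, above the 6.37 to 6.63 of uninjured flank. The part of these cell types in the members' results was not tested.

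The genes whose levels were most like each member over the 44 arrays were found by Pearson correlation among genes with a symbol. For KIT they were RNF19A (r = 0.91), STAMBPL1 (0.89), BEND2 (0.89), HELZ (0.89) and GABARAPL2 (0.88). For SPR they were PLS1 (0.91), HCRTR2 (0.91), CIB2 (0.91), QRICH2 (0.90) and CD164 (0.90). For CHGA they were TMEM154 (0.86), U2AF2 (0.84), HTRA1 (0.83), TMEM132A (0.83) and HNRNPA3 (0.83). For SCG2 they were PRG4 (0.95), TUBB6 (0.93), TMEM50B (0.93), APLP2 (0.92) and ATP2A2 (0.90). No pigment or granule list gene was among them, and the points share arrays and groups, so these are descriptions with no test.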

How the data were processed

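Epidermal RNA of 44 samples was measured on an axolotl Affymetrix array. The deposited table holds log2 intensities, 20080 probe sets by 44 arrays; RMA and limma are named, per the submitters' processing notes, without their role, and settings are not given in the sources used here. From these values 45 control probe sets were left out. Gene symbols came from the platform annotation: 10951 probe sets have 1 symbol, 9084 have none, and the probe set of highest mean stood for a gene. limma 3.58.1 (R 4.3.3) fitted 1 mean per group over all arrays, with 33 residual degrees of freedom, eBayes and two-sided tests adjusted by Benjamini-Hochberg over 20035 probe sets, called under 0.05. The fit was tested on simulated data. No scan date or batch was given, and the number of arrays limits the precision.

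The members and all lists were chosen with earlier results of these data known. A member has a p only where neither group was in the comparison that chose it. Replicate numbers were checked for pairing: 1 of 55 group pairs had every same-number correlation over 0.1, so they were not treated as pairs. That pair was uninjured limb with innervated limb on day 7 (0.23 to 0.40), the groups behind the innervated day 7 changes. Named genes are the members, the 5 genes most like each, up to 6 genes of each pigment and granule list with the smallest adjusted p against day 0 and 3 for nerve supply, and any list member that did not pass; from lists of other cell types, those named were chosen after their values were seen where they are not the brightest 2. The 14 lists also held purine synthesis and fibroblast and matrix genes. For purine synthesis (9 measured) 1 to 2 rose and 1 to 5 fell against day 0; for fibroblast and matrix (16 measured) 2 to 7 rose and 0 to 8 fell. Alternatives were other variance models, array weights, normalizations, filters, probe sets, left-out arrays and an exact permutation test. Member sequences and coordinates were not used here.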

Additional observations from a re-analysis of the deposited data

Results flagged for a closer look

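In 6 of 66 groups of 4 arrays of a member's probe set, 1 array lay far from the other 3. Chance alone gives about 1 in 20 groups. They were the KIT level of 8.62 in the denervated limb on day 1, the SPR levels of 12.68 in uninjured limb and 9.51 in the innervated limb on day 3 (axo08854-f_at), and the CHGA level of 8.35 in the innervated limb on day 3 (axo07069-r_at). With the second CHGA probe set they were 5.22 in uninjured flank and 5.79 in the flank on day 1. The KIT and uninjured SPR values belong to tight groups and lie within 0.3 of the others.

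With the second SPR probe set (axo08853-f_at), all 4 flank arrays were above their day 0 mean and all 4 innervated limb arrays below theirs on days 3 and 7, although limb replicate 4 lay within the uninjured range of 9.75 to 9.99 on both days. The change in the flank exceeded that in the innervated limb by 0.63 on day 3 and by 0.50 on day 7. This difference was not tested.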

How the results depend on the processing

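With the replicate block no member call changed among the 171 results run (KIT from day 1 to day 3 in the denervated limb was 1.73, adjusted p = 4.91e-06 by limma). An intensity trend in eBayes changed none either. Every group holds the same replicate numbers, so the block cannot alter a difference between groups, and neither can the trend. Their kept directions are therefore no check, and only the calls could move. The second SPR probe set gave, against day 0, -0.29, -0.22 and -0.18 in the innervated limb, -0.25, -0.18 and -0.13 in the denervated limb and -0.035, 0.41 and 0.32 in the flank on days 1, 3 and 7. With it, innervated minus denervated was -0.035 on day 3 and -0.053 on day 7, innervated limb minus flank was 0.31, 0.05, -0.32 and -0.20 on days 0, 1, 3 and 7, the denervated step from day 3 to day 7 was 0.055 and the flank step from day 1 to day 3 was 0.44. The second CHGA probe set gave 0.37 and 0.50 in the innervated limb on days 3 and 7, 0.34 and 0.58 in the denervated limb, and 0.46, 0.22 and 0.34 in the flank on days 1, 3 and 7 against day 0, and limb minus flank of -0.22 on day 0 and -0.055 on day 7.

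The SPR flank step from day 3 to day 7 was -0.81 with array weights (adjusted p = 0.0209), and -0.76 passed with the 2 groups fitted alone (adjusted p = 0.00212) and in the exact permutation test (p = 0.0286). Without the 3 arrays of highest muscle signal, SCG2 from day 1 to day 3 was -1.13 in the innervated and -1.004 in the denervated limb, neither past the threshold, SCG2 innervated minus denervated on day 1 turned to -0.14, the KIT denervated step from day 3 to day 7 turned to -0.019, and the SPR difference in change between denervated limb and flank turned to 0.10 from day 1 to day 3 and to -0.078 from day 3 to day 7. The KIT difference in change of those series from day 3 to day 7 turned to 0.0057 with quantile normalization and 0.02 with median centring, and SCG2 innervated limb minus flank on day 3 turned to -0.038 with array weights and -0.013 with quantile normalization; none of these passed in either setting. In the denervated limb the SCG2 steps kept their values of -1.20 and -1.41 with the compared groups fitted alone and did not pass (adjusted p = 0.0645 and 0.125), nor did the first in the exact permutation test (p = 0.0857).

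Leaving out 1 array at a time, called values ranged from -1.04 to -0.88 for SPR limb minus flank on day 7, and from -1.59 to -0.92 and from -1.68 to -1.02 for the 2 denervated SCG2 steps. SPR in the denervated limb from day 3 to day 7 ranged from -1.01 to -0.22. Values that did not pass and changed sign ranged from -0.38 to 0.064 (KIT innervated minus denervated, day 7), -0.23 to 0.011 (KIT limb minus flank, day 7), -0.13 to 0.31 and -0.031 to 0.27 (KIT from day 3 to day 7, denervated limb and flank), -0.24 to 0.21 (KIT difference of those changes), -0.086 to 0.70 (SPR innervated minus denervated, day 7), -0.028 to 0.37 (SPR denervated limb from day 1 to day 3), -0.30 to 0.098 and -0.25 to 0.54 (SPR denervated limb against flank, both steps), -0.35 to 0.32 and -0.16 to 0.18 (SCG2 on day 3 against denervated limb and flank) and -0.61 to 0.058 (SCG2 innervated against denervated limb from day 1 to day 3).

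With the compared groups fitted alone, pigment list counts became 1 riser in the innervated limb on day 1, 3 fallers on day 3, 2 fallers in the denervated limb on day 7 and 2 risers in the flank on day 1; without the muscle-rich arrays the first was also 1. Granule and peptide counts with the groups fitted alone became 3 risers and 5 fallers in the denervated limb on day 7 and 3 fallers in the flank on days 1 and 3; without the dimmest 25% they were 3 risers in the denervated limb on day 7 and 7 in the flank on day 1. With the probe set of largest variance 4 fell in the innervated and 3 in the denervated limb on day 1, and 1 was higher in innervated than in denervated limb on day 7; with array weights 2 were lower there. Leaving out 1 array moved pigment risers to between 1 and 3 (innervated limb, day 1), 2 and 4 (day 7), 1 and 2 (denervated limb, day 1) and 2 and 4 (flank, day 1), and pigment fallers to between 2 and 4 (denervated limb, day 7) and 1 and 2 (flank, day 1). Granule and peptide risers ran from 2 to 4 and 2 to 5 (denervated limb, days 3 and 7) and 1 to 2 (flank, day 7), and fallers from 5 to 9 (denervated limb, day 7), 2 to 5 (flank, day 3) and 0 to 1 (innervated against denervated limb, day 7). The cause of these shifts was not tested. Groups of 4 arrays gave an SE of 0.26 to 0.39 on the log2 scale for the probe sets of higher mean, and the SPR differences of -0.61 and -0.76 did not pass, so differences of that size could go uncalled, and dim probe sets hold little signal over background.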

Other observations

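CCK, the precursor of cholecystokinin peptides, differed between innervated limb and flank on days 1 and 3. It averaged 9.30 in uninjured flank, from 8.26 to 10.75, and 11.63 and 11.62 in the flank on days 1 and 3. In the innervated limb CCK averaged 8.92 before injury and 9.18 and 9.59 on days 1 and 3. It rose against day 0 in the flank by 2.34 on day 1 and 2.32 on day 3, and in the denervated limb by 1.82 on day 3, and passed in no innervated limb comparison with day 0. The innervated limb was below the flank by -2.46 on day 1 and by -2.03 on day 3, with no overlap of arrays. On day 3 the ranges nearly met, with the highest limb array at 10.61 and the lowest flank array at 10.63. No test is given for these differences, because CCK was named for its changes from day 0, which use the same flank arrays. Innervated and denervated limbs differed by -0.83 on day 1 and -1.15 on day 3, and neither passed. The denervated arrays of day 7 ran from 6.52 to 11.01.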
